A study of Mus musculus with 8 samples.

Results

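Cytosolic ribosomal protein genes encode the protein part of the ribosome that translates nuclear-encoded mRNAs. They were taken as every protein-coding row of the gene table whose symbol begins with Rpl or Rps and a number, plus Rpsa, Rplp0, Rplp1 and Rplp2, with the Rps6k kinase genes and pseudogenes left out. Of 55487 genes in the table, 86 met this definition. They comprised 46 genes of the large (60S-type) subunit, 31 of the small (40S-type) subunit, 8 paralogs of such genes (Rpl3l, Rpl7l1, Rpl10l, Rpl22l1, Rpl36al, Rpl39l, Rps27l and Rps27rt) and Rps19bp1. The last encodes a protein that binds Rps19 and is no part of the ribosome, but its symbol meets the definition. After the filter on low counts 82 of the 86 could be tested. Rpl10l, Rpl24, Rpl36al and Rpl39l could not.

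The libraries came from hearts of db/db mice, a strain with a mutated leptin receptor that becomes obese and diabetic. There were 4 libraries from mice given vehicle and 4 from mice given DIZE, a compound that the title of the study presents as an activator of angiotensin-converting enzyme II. All 8 libraries shared the db/db genotype, and lean controls were not analysed here. The sources used here give no dose, duration, age or sex. Whether the 8 libraries stand for 8 animals was not stated. The p-values therefore refer to variation among libraries, which may be technical. Libraries are called vehicle 1 to 4 and DIZE 1 to 4. The titles of vehicle 1, vehicle 2, DIZE 1 and DIZE 2 contain the letters db, and the other 4 do not.

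Each ribosome holds a single copy of most of its proteins, and surplus proteins are degraded, so their mRNAs are usually kept in step. These mRNAs typically begin with a C followed by a run of pyrimidines, the terminal oligopyrimidine (TOP) tract, through which mTOR and the RNA-binding protein Larp1 control their translation. A heart in adult life replaces its ribosomes slowly and makes more of them when it grows. In striated muscle a paralog of Rpl3, called Rpl3l, takes the place of Rpl3 in part of the ribosomes.

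The sequence around the annotated start shows pyrimidine runs of this kind in several of the genes. In the windows printed for Rpl22 and Rpl3l no run of at least 7 such letters came within 20 bases of the start, though the Rpl22 window holds one farther upstream, at its left end. RefSeq start windows (build GRCm38.p6, 250 bases before the start to 50 after it) were at hand for 66 of the 86 genes. The lines below give 40 bases before the start and 25 from it, read 5′ to 3′ on the gene's own strand. Capitals mark each unbroken run of at least 7 C or T letters that reached to within 20 bases of the start. Rps6, Rpl35, Rplp2 and Rpl28 are shown as genes with such a run across the start, and the others because the paralog comparisons turn on them.
Rps6: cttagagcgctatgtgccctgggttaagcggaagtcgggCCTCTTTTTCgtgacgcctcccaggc
Rpl35: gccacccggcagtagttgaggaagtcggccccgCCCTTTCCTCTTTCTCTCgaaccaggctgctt
Rplp2: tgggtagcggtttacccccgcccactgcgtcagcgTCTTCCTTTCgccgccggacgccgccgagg
Rpl28: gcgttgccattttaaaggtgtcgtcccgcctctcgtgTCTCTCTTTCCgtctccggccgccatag
Rps27: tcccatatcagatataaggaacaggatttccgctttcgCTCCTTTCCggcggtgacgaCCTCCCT
Rps27l: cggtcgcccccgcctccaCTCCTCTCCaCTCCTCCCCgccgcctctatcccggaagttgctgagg
Rpl22: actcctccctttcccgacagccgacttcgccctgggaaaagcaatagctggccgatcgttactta
Rpl22l1: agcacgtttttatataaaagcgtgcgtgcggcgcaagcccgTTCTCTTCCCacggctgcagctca
Rpl3l: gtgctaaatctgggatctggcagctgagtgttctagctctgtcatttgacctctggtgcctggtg

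These stretches lie at chr4:86857343-86857407 on the minus strand for Rps6, chr2:39005107-39005171 on the minus strand for Rpl35, chr7:141447611-141447675 on the plus strand for Rplp2 and chr7:4792925-4792989 on the plus strand for Rpl28. They lie at chr3:90213624-90213688 (minus) for Rps27, chr9:66946046-66946110 (plus) for Rps27l, chr4:152325686-152325750 (plus) for Rpl22, chr3:28805468-28805532 (plus) for Rpl22l1 and chr17:24727786-24727850 (plus) for Rpl3l. Each spans the proximal promoter and the first bases of the first exon. Rps27l, Rpl22 and Rpl3l have a second annotated start in the table, which is not printed.

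A run of at least 7 pyrimidines near the start was present in 35 of 57 subunit genes with a window (61.4%), in 4 of 8 paralogs, and in 33.2% of the 10159 tested genes with a window. A C at the start itself followed by 4 pyrimidines was present in 13 of the 57 subunit genes (22.8%), against 3.11% of tested genes. The letters CTCTTTC, searched on both strands over the whole 300 bases and overlapping the pyrimidine runs, were found in 31.6% of subunit genes, in 0 of 8 paralogs and in 8.86% of tested genes. CCGGAAG, the core letters bound by ETS-family factors, was found on either strand in 42.1% of subunit genes and 19.4% of tested genes. TATAAA on either strand was found in 10.5% and 9.19%. Over all 27025 genes of the table the shares were 33.7%, 3.01%, 9.28%, 9.93% and 15.7% in that order. A match describes these letters in these windows and not the use of a site.

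The libraries held between 7447664 and 10161623 counts. Mitochondrially encoded genes took 7.5% to 9.9% of them. The 10 cardiomyocyte markers were all tested, and all 10 were detected in every library. They summed to 30740 CPM in vehicle 1, to 41010 to 50340 CPM in vehicle 2 to 4 and to 45710 to 52160 CPM across the DIZE group. The low sum of vehicle 1 did not hold for every marker. Its Tnni3, Myl2, Myl3 and Pln fell inside the span of the other vehicle libraries. The remaining markers fell below that span, Tnnt2 only slightly. Myh6, the largest part of the sum, reached 8858 CPM there, while the other vehicle libraries had 15570 to 19350 CPM. CPM, the counts-per-million unit, refers here to the reads in tested genes and is scaled by TMM factors. Over all 13648 genes tested, edgeR's quasi-likelihood test called 5 at a Benjamini-Hochberg adjusted p under 0.05.

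No ribosomal protein gene passed edgeR's test of DIZE against vehicle. At an adjusted p under 0.05, 0 of 82 tested genes were called, where 0.0366% of all genes tested were. The smallest adjusted p among them was 0.257. Only Rps21 and Rps27l, 2 of the 82, had an unadjusted p under 0.05, a level that 19.4% of all genes tested reached. DESeq2 and limma-voom also called 0 of these genes, beside 3.97% and 0.0293% of all genes they tested, and neither had a ribosomal protein gene at an unadjusted p under 0.05. The groups overlapped for every one of the 82 genes, while they did not overlap for 12.4% of all genes tested.

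Below the threshold the estimates leaned one way. The log2 fold change of DIZE over vehicle was below 0 for 77 of 82 genes (93.9%), against 51.8% of all genes tested. The median was −0.18, with a range from −0.33 to 0.24, against a median of −0.01 over all genes. Of the large-subunit genes 41 of 45 were below 0, with a median of −0.17. Of the small-subunit genes 30 of 31 were below 0, with a median of −0.20. All 5 tested paralogs were below 0, with a median of −0.135. The median standard error of a single gene was 0.14, close to the size of the median itself.

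This lean moved with 1 library, vehicle 1. Without it the median was −0.05 and 53 of 82 genes were below 0, against 50.2% of all genes in the same fit, and 0 of 82 passed the threshold, which 0.0655% of all genes did. Within the libraries whose titles contain db, which include vehicle 1, the median difference was −0.365 and 80 of 82 genes were lower with DIZE. Within the 4 libraries whose titles do not, it was 0.03 and 23 of 82 were lower. These 2 subsets, with 2 libraries per group, were not tested separately. With title form as a block in edgeR's fit of all 8 libraries, the median was −0.17, 76 of 82 genes were below 0 and 0 passed the threshold. Bulk RNA cannot tell fewer cells of a type from less RNA per cell.

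**Figure D1:**
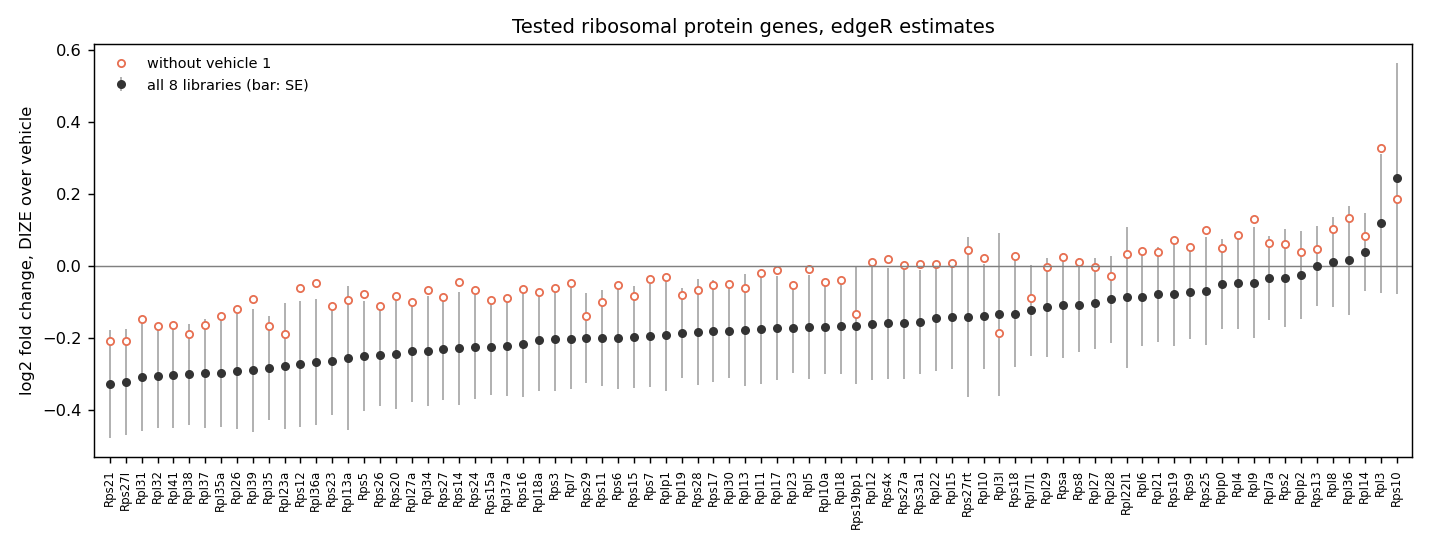
The log2 fold change of DIZE over vehicle (y axis) is shown for each of the 82 tested genes (x axis, ordered by value), with filled points and SE bars for all 8 libraries and open points for the fit without vehicle 1. The filled points lie below 0 for 77 genes, the open points for 53.

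Ribosomal protein genes together took 2.35% of all counts in vehicle 1. They took 1.58%, 1.52% and 1.42% in vehicle 2, 3 and 4, and in the DIZE group 1.505%, 1.35%, 1.59% and 1.43%. Vehicle 1 was the highest of the 8, and the other 3 vehicle libraries lay within the range of the DIZE libraries. The mean was 1.72% ± 0.427 (SD, n = 4) with vehicle and 1.47% ± 0.104 (SD, n = 4) with DIZE. Without vehicle 1 the vehicle mean was 1.51% ± 0.0836 (SD, n = 3). With the 296 pseudogene rows of the same symbols added the means were 1.747% and 1.494%.

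**Figure D2:**
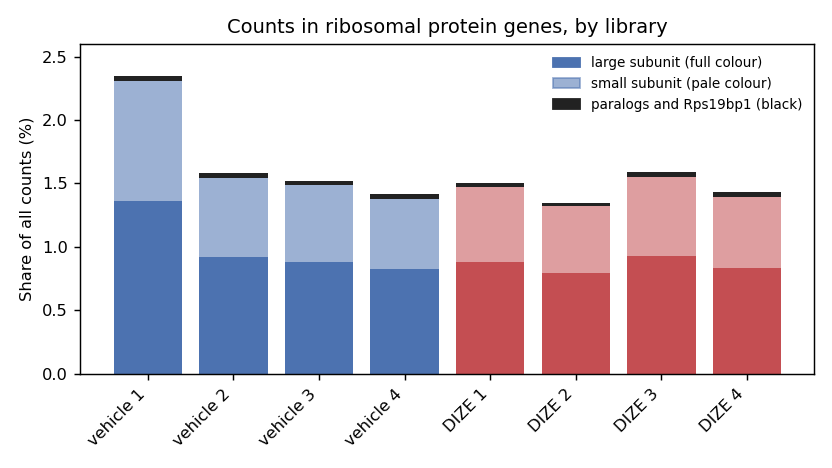
Share of all counts (y axis, percent) in ribosomal protein genes for each library (x axis), split into large-subunit genes (full colour), small-subunit genes (pale colour) and paralogs with Rps19bp1 (black), with vehicle in blue and DIZE in red. Vehicle 1 stands at 2.35%, and the other 7 libraries between 1.35% and 1.59%.

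The 2 subunits moved nearly together. The ratio of large-subunit to small-subunit counts was 1.436, 1.470, 1.459 and 1.488 in the vehicle libraries, in order, and 1.489, 1.512, 1.493 and 1.495 in the DIZE libraries. Every DIZE ratio lay above every vehicle ratio, although vehicle 4 and DIZE 1 were nearly equal, with means of 1.497 ± 0.0101 against 1.463 ± 0.0217 (SD, n = 4 each). Without vehicle 1 the vehicle mean was 1.472 ± 0.0146 (SD, n = 3). The difference in this ratio was not tested. Vehicle 1 had the lowest ratio and DIZE 2 the highest, in the reverse order of their shares of counts.

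Vehicle 1 had the highest level of the 8 libraries for 78 of the 82 tested genes. The lowest level fell in DIZE 2 for 32 genes, in vehicle 4 for 24 and in DIZE 4 for 22. Against the mean of the other 3 vehicle libraries, on the log2 CPM scale, vehicle 1 was higher by a median of 0.48, with a range from −0.21 to 0.73, while the median over all genes tested was −0.01. It exceeded the other vehicle libraries by over 1.5-fold for 10 of 82 genes (12.2%), and for 6.48% of all genes. The excess was largest for Rpl36a (0.73), Rps12 (0.71) and Rpl3 (0.70). It was small or below 0 for Rps13 (0.19), Rpl14 (0.175), Rpl7l1 (0.14), Rps19bp1 (0.14), Rps10 (−0.12) and Rpl3l (−0.21). These genes were picked after their values were seen. Of the last 4, only Rps10 encodes a protein of the standard ribosome.

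Other measures set vehicle 1 apart as well. The summed level of 5 atrial markers was 824 CPM there, 35.7 to 328 CPM in vehicle 2 to 4 and 13.55 to 130.5 CPM with DIZE, with Sln and Bmp10 at 0 in some libraries. All 10 macrophage markers were tested, with a sum of 1193 CPM against 646 to 729 CPM and 619 to 660.2 CPM. The 10 fibroblast markers summed to 4684 CPM against 3246 to 3536 CPM and 2736 to 4363 CPM. Single markers did not all follow these sums. In vehicle 1 Col1a1 was at 45.15 CPM, against 101.6 to 133.4 CPM in vehicle 2 to 4. Csf1r, a macrophage marker, was at 78.09 CPM there, against 83.18 to 92.52 CPM. The median log2 deviation of vehicle 1 from the gene means was 0.691 for macrophage and 0.565 for fibroblast markers. The 10 endothelial markers, at 2651 CPM, lay inside the vehicle range of 1931 to 2771 CPM, and 9 lymphocyte markers summed to 0.921 to 5.23 CPM over all 8 libraries. Ribosomal protein genes were shorter than other genes, with a median exon length of 1775.5 bases against 4356, at a GC content of 50.96% against 49.61%. The excess of vehicle 1 correlated with GC content at a Spearman coefficient of −0.429 over all genes and −0.348 over ribosomal protein genes. For the log2 fold change of DIZE over vehicle the coefficients were 0.387 and 0.134. After removal of the GC and length trend in every library, the excess of vehicle 1 over the other vehicle libraries had a median of 0.33, against −0.04 over all genes. The 8 erythroid markers were low in the whole DIZE group, where they summed to 9.34 to 78.9 CPM against 102 to 211 CPM with vehicle. The part of the cell types in these differences was not tested.

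**Figure D3:**
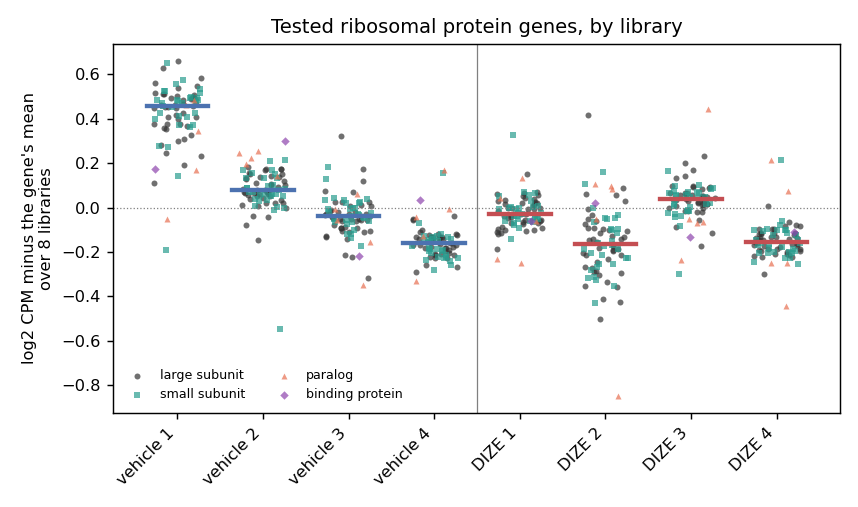
For each library (x axis), points give the log2 CPM of the 82 tested genes minus that gene's mean over the 8 libraries (y axis), by class of gene, and bars give the median. The median was 0.46 in vehicle 1 and between −0.16 and 0.08 in the other 7 libraries.

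The spread of these genes within groups was 0.21 (median SD of log2 CPM), against 0.24 for all genes tested. Among genes with a mean of at least 50 CPM the order turned, with 0.21 for 74 ribosomal protein genes and 0.18 for 3831 genes in all.

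Among small-subunit genes, Rps21 had the smallest p. Rps21 (chromosome 2, 180257377 to 180258445, plus strand, mm10) encodes a protein on the back of the small subunit that takes part in maturation of its rRNA. Its level was 102, 81.7, 79.65 and 65.8 CPM in vehicle 1 to 4, in order, and 65.8, 53.8, 74.6 and 67.7 CPM in the DIZE group. Vehicle 1 was highest and DIZE 2 lowest, and vehicle 4 alone lay within the range of the DIZE libraries. The log2 fold change was −0.33 ± 0.15 (SE; edgeR adjusted p = 0.257), and −0.21 ± 0.13 (SE) without vehicle 1.

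Rps6, the small-subunit protein phosphorylated by S6 kinases downstream of mTOR, was measured at 327, 236, 229 and 224 CPM with vehicle. With DIZE it was measured at 225, 197, 249 and 212 CPM. Vehicle 1 lay far above the other 7 libraries, which overlapped between groups. The log2 fold change was −0.20 ± 0.14 (SE; edgeR adjusted p = 0.455), and −0.055 ± 0.10 (SE) without vehicle 1.

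Rpsa, the small-subunit protein also known as the laminin receptor, had a log2 fold change of −0.11 ± 0.146 (SE), which was 0.025 without vehicle 1. Its level ran from 169 to 264 CPM with vehicle and from 173 to 213 CPM with DIZE, and the groups overlapped. Rps10, which contacts mRNA near its entry into the small subunit, had the highest estimate of all 82 genes, 0.24 ± 0.32 (SE; edgeR adjusted p = 0.708). Its level was only 0.77 to 1.61 CPM with vehicle and 1.01 to 1.83 CPM with DIZE.

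In the large subunit, the lowest estimates with the smallest p belonged to Rpl32, Rpl38, Rpl41 and Rpl31. Rpl38, which in mouse embryos is needed for translation of particular Hox mRNAs, was at 89.6, 72.6, 71.2 and 59.5 CPM with vehicle. With DIZE it was at 60.4, 50.9, 67.8 and 58.3 CPM. Vehicle 4 lay within the range of the DIZE libraries, and the other 3 vehicle libraries lay above it. Its log2 fold change was −0.30 ± 0.14 (SE; edgeR adjusted p = 0.272), and −0.19 ± 0.12 (SE) without vehicle 1. The estimates were −0.31 for Rpl32, −0.31 for Rpl31 and −0.30 for Rpl41, a peptide of few residues, with edgeR adjusted p between 0.271 and 0.2898. Without vehicle 1 they were −0.17, −0.15 and −0.17.

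The stalk of the large subunit, which recruits elongation factors, is built from Rplp0, Rplp1 and Rplp2. Rplp0 was at 657, 563, 500.3 and 463 CPM with vehicle. With DIZE it was at 553, 500.2, 568 and 486 CPM. Apart from vehicle 1, both groups covered the same range. The log2 fold changes of Rplp0, Rplp1 and Rplp2 were −0.05 ± 0.13, −0.19 ± 0.15 and −0.025 ± 0.12 (SE). Without vehicle 1 they were 0.05, −0.03 and 0.04.

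Only 5 of the 82 estimates were above 0, those of Rps10, Rpl3 (0.12), Rpl14 (0.04), Rpl36 (0.015) and Rpl8 (0.01). The signs for Rpl14, Rpl36 and Rpl8 turned below 0 with library totals in place of TMM factors, at −0.035, −0.059 and −0.064. Their edgeR adjusted p was 0.879 or higher.

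Rpl3 and Rpl3l were the 2 tested genes with the widest spread within groups, at 0.32 and 0.41 (log2 SD). Rpl3 (chromosome 15, 80077791 to 80091868, minus strand, mm10) reaches towards the peptidyl transferase centre of the large subunit. Rpl3l (chromosome 17, 24727820 to 24736143, plus strand) is its counterpart of heart and skeletal muscle. Rpl3 was at 255, 167, 148 and 154.5 CPM in the vehicle libraries and at 206, 248, 174 and 159.7 CPM in the DIZE libraries. Rpl3l was at 211, 259.8, 228 and 246 CPM with vehicle and at 186, 121, 298 and 254 CPM with DIZE. In vehicle 1, DIZE 1 and DIZE 2, Rpl3 was high and Rpl3l low, and in the other 5 libraries Rpl3l exceeded Rpl3. Of the read-length stretches of Rpl3, 40.7% also occur in transcripts of other genes, against 0% for Rpl3l. Counts of Rpl3 are therefore uncertain, and with them its level relative to Rpl3l and the shares of the pair. The log2 fold changes were 0.12 ± 0.19 for Rpl3 and −0.135 ± 0.23 for Rpl3l (SE; edgeR adjusted p of 0.769 and 0.775), with overlapping groups.

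Rpl3l made up 45.2%, 60.9%, 60.6% and 61.4% of the counts of the pair in vehicle 1 to 4. In DIZE 1 to 4 it made up 47.5%, 32.9%, 63.1% and 61.4%. Each group held libraries near 61% and lower ones, so the groups overlapped. The lower shares all fell in libraries with db in their titles, though vehicle 2, at 60.9%, is such a library too. A relation to title form was not tested. The log2 ratio differed by −0.345 between DIZE and vehicle (exact permutation test, two-sided, n = 4 and 4, p = 0.686, adjusted over 4 pairs 0.8, with 0.0286 the smallest p this design allows). Without DIZE 2 the difference was 0.02. Vehicle 1 and DIZE 2, both with low Rpl3l shares, stood at opposite ends of the share of counts in ribosomal protein genes as a whole.

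**Figure D4:**
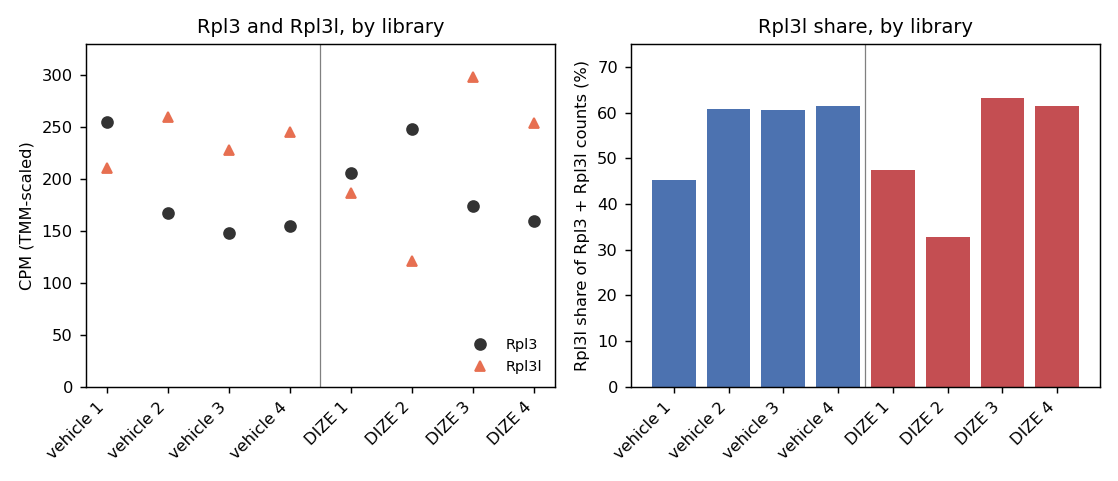
Left, level of Rpl3 (circles) and Rpl3l (triangles) in CPM for each library; right, share of Rpl3l in the counts of the pair in percent, with vehicle in blue and DIZE in red. Rpl3l falls below Rpl3 in vehicle 1, DIZE 1 and DIZE 2, with shares of 45.2%, 47.5% and 32.9%.

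The same 3 libraries had the lowest sums of 9 skeletal muscle markers, at 942 CPM in vehicle 1, 1046 CPM in DIZE 1 and 889.8 CPM in DIZE 2, against 1261 to 1584 CPM in the other 5. Nearly all of that sum came from Acta1 and Ckm, which heart muscle expresses too, and Myh4 was at 0 in every library. Acta1, the skeletal actin isoform, was at 269.9, 153 and 90.8 CPM in those 3 libraries and at 363 to 599.6 CPM in the other 5. The relation between Rpl3l and these genes was not tested.

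The other paralog pairs showed steadier shares. Rps27l, a p53-induced relative of Rps27, made up 27.7% ± 1.57 (SD, n = 4) of its pair with vehicle and 26.4% ± 2.74 (SD, n = 4) with DIZE (exact permutation test, two-sided, p = 0.514). Rpl22l1, which can replace the RNA-binding protein Rpl22, made up 5.13% ± 0.914 and 5.38% ± 1.07 (SD, n = 4 each; exact permutation test, p = 0.8). Rpl7l1, a relative of Rpl7, made up 11.1% ± 1.32 and 11.5% ± 1.52 (SD, n = 4 each; exact permutation test, p = 0.743). All 4 pairs tested had an adjusted p of 0.8. Among the single genes of the pairs the log2 fold changes were −0.145 for Rpl22, −0.09 for Rpl22l1, −0.23 for Rps27, −0.20 for Rpl7, −0.12 for Rpl7l1, −0.14 for Rpl10, −0.27 for Rpl36a and −0.29 for Rpl39, and none was called by edgeR. Rps27l itself was at 57.2, 48.4, 39.7 and 41.1 CPM with vehicle and at 39.6, 39.9, 39.5 and 30.2 CPM with DIZE, with DIZE 4 lowest and the groups overlapping through vehicle 3. Its log2 fold change was −0.32 ± 0.15 (SE; edgeR adjusted p = 0.258), and −0.21 ± 0.13 (SE) without vehicle 1.

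Rpl39l and Rpl36al, 2 further paralogs, gave at most 0.436% and 0.4155% of the counts of their pairs in any library, and Rpl10l gave 0 counts in all 8. Rpl10l and Rpl39l are known for expression in the testis. These 3 were too low to be tested. For Rpl36al, 24.5% of the exon length overlaps Gm49383 on the same strand, and 18.1% of its read-length stretches occur in transcripts of other genes. For Rpl36a 41.4% of the stretches do, so the counts of this pair are uncertain.

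Compared per length, as CPM on library totals per kilobase of exon, Rplp1 (477), Rps15 (410.3) and Rps3a1 (404) stood highest as means of the 8 libraries. Rpl22l1 (3.904), Rpl13a (2.496) and Rps10 (0.601) stood lowest among tested genes. Rpl3l reached 137 on this scale and Rpl3 59.6, or 164 and 101 with the longest transcript as the length. The shared stretches of Rpl3 make this comparison uncertain. The range over libraries was 364 to 742 for Rplp1, 321 to 599 for Rps15 and 353 to 619.9 for Rps3a1, so the order of these 3 lay within their spread. The log2 fold changes of Rps15 and Rps3a1 were −0.20 ± 0.14 and −0.16 ± 0.14 (SE), with overlapping groups.

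Several of the low genes lie in places where counting is uncertain. For Rpl24, 47.0% of the exon length overlaps Gm28037 on the same strand, and 72.3% of its read-length stretches occur in transcripts of other genes. It was at 0.0981 to 0.707 CPM. For Rps10 the overlap is 20.6%, with RPS10-NUDT3, and 44.1% of stretches are shared. For Rpl13a the overlap is 35.4%, with Gm45713 and small RNA genes, and 52.6% are shared. Rpl5 (88.2% shared) stood at 90.04 CPM per kilobase and Rps27rt (87.1% shared), an intronless copy related to Rps27, at 14.79. No stretch was shared for 22 of the 86 genes, and over 50% were shared for 9, among them Rps6 (50.5%) and Rpl31 (55.4%). Values of the genes with shared stretches are uncertain, since reads that fit several genes may have been dropped or split.

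**Figure D5:**
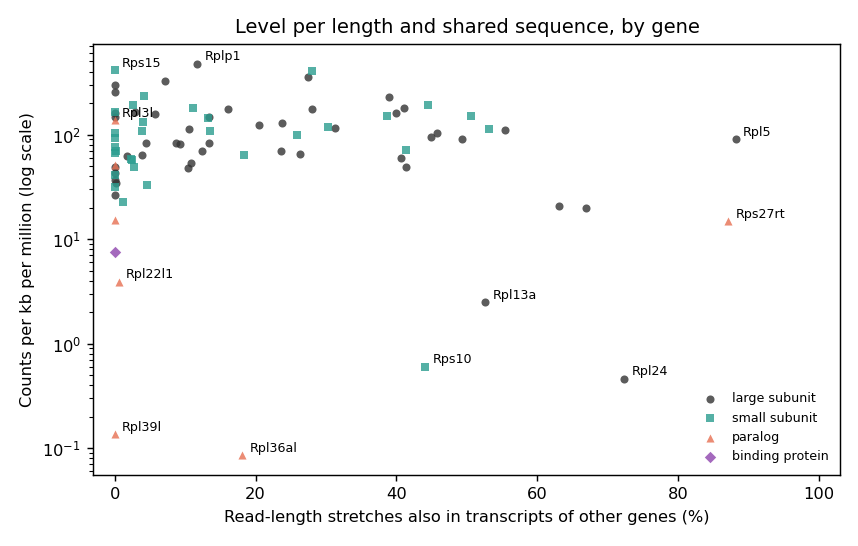
For each gene with counts, the share of its stretches of read length that also occur in transcripts of other genes (x axis, percent) is set against its mean level (y axis, CPM per kilobase, log scale). Rpl24, Rps10 and Rpl13a combine low levels with 72.3%, 44.1% and 52.6%, while Rpl39l and Rpl22l1 are low with 0% and 0.626%.

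Among 140 tested genes that work with the ribosome, edgeR and limma-voom called 0, beside 0.0366% and 0.0293% of all genes they tested. At an unadjusted p under 0.05 they had 15 and 16, a level that 19.4% of all genes reached in edgeR. DESeq2 called 1, Deptor, beside 3.97% of all genes it tested, with 18 at an unadjusted p under 0.05. The counts by list that follow are from edgeR, and the same 19.4% and 0.0366% of all genes stand beside each. Fau, which encodes a small-subunit protein fused to a ubiquitin-like domain, had a log2 fold change of −0.17 ± 0.14 (SE; edgeR adjusted p = 0.539). Of 50 ribosome biogenesis genes, 25 estimates were above and 25 below 0, with a median of 0.00, 5 at an unadjusted p under 0.05 and 0 called. Vehicle 1 deviated from the gene means by a median of 0.025 for these 50, against 0.46 for the ribosomal protein genes. Mdn1, Heatr1 and Rrs1, all needed for ribosome assembly, had the smallest p of this list, with log2 fold changes of −0.72, −0.45 and 0.37 (edgeR adjusted p from 0.1445 to 0.181). The nucleolar proteins Ncl and Npm1 had −0.02 and −0.15. The 17 tested genes of RNA polymerase I and rDNA transcription had a median of −0.03, 1 at an unadjusted p under 0.05 and 0 called. Polr2k, Polr1d and Rrn3 had the smallest p, with log2 fold changes of −0.38, −0.27 and 0.21.

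Of 15 elongation factors and other mRNAs known for TOP-type starts, 5 estimates were above and 10 below 0, with a median of −0.04, 2 at an unadjusted p under 0.05 and 0 called. Eef1a1, the general isoform of the factor that brings tRNA to the ribosome, was at 1575 CPM in vehicle 1, at 939.5 to 954 CPM in vehicle 2 to 4 and at 760.1 to 922 CPM with DIZE. Eef1a2, its isoform of muscle and neurons, was at 557 CPM in vehicle 1, at 1114 to 1247 CPM in vehicle 2 to 4 and at 1115 to 1522 CPM with DIZE. The isoforms thus stood in opposite places in vehicle 1, where Eef1a2 made up 26.1% of the pair. The other vehicle libraries had shares of 56.7%, 54.2% and 54.7%, in order. The DIZE libraries had 59.7%, 59.5%, 64.6% and 59.7%, so every DIZE library lay above every vehicle library, with or without vehicle 1. This difference was not tested, and the pair was not among the planned paralog pairs. The groups did not overlap for Eef1a1 alone either, nor for 12.4% of all genes tested. DIZE 2, with the lowest Rpl3l share, was close to DIZE 1 and DIZE 4 in its Eef1a2 share. Tpt1, a further TOP mRNA, had a log2 fold change of −0.11 ± 0.13 (SE), and 0.00 without vehicle 1. Eef2, the factor that moves the ribosome along the mRNA, had 0.18 ± 0.10 (SE), Eif4a2 −0.23 and Naca, which has a muscle isoform, 0.57.

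Of 33 initiation factors, 17 estimates were above and 16 below 0, with a median of 0.01, 2 at an unadjusted p under 0.05 and 0 called. Eif4g3, Eif3f and Eif4e had the smallest p, with log2 fold changes of 0.44, 0.33 and −0.26. Among 24 genes of mTOR signalling to ribosomes, 15 were above and 9 below 0, with a median of 0.09, 5 at an unadjusted p under 0.05 and 0 called by edgeR. Deptor, an inhibitor of mTOR, had the smallest adjusted p of all these lists. It was at 32.5, 27.2, 34.9 and 25.9 CPM with vehicle and at 18.7, 16.1, 19.9 and 21.2 CPM with DIZE. The groups thus did not overlap, as was so for 12.4% of all genes tested. The log2 fold change of Deptor was −0.67 ± 0.14 (SE; edgeR adjusted p = 0.0888). DESeq2, which called 3.97% of all genes it tested where edgeR called 0.0366%, gave an adjusted p of 0.00537. With edgeR, the fit without a filter on low counts gave 0.0231 and the fit without vehicle 2 gave 0.0498. The remaining alternatives gave adjusted p from 0.0737 with upper-quartile factors to 0.216 without DIZE 4, among them 0.105 with limma-voom, 0.197 with the replicate block and 0.201 without DIZE 3. Rps6kb1 and Eif4ebp2 followed, with log2 fold changes of −0.31 and 0.43. Mtor and Larp1 were at 61.9 and 56.4 CPM in vehicle 1, below the 101 and 116 CPM that were lowest elsewhere, and their log2 fold changes were 0.10 ± 0.19 and 0.36 ± 0.25 (SE).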

How the data were processed

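Whole-heart RNA was poly(A)-selected and sequenced as 151-base pairs from stranded libraries, per the labels' protocols. The authors deposited raw counts per Ensembl gene. STAR 2.7.3, HTSeq 0.6.1p1 and build mm10 are named in the submitters' processing notes. Annotation release and strand setting were not given in the sources used here.

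Symbols, lengths, overlaps and shared 151-base stretches came from GENCODE M21 (GRCm38), matching 55227 of 55487 IDs. Counts were tested with edgeR 4.0.16 (R 4.3.3; TMM factors, filterByExpr with a minimum count of 10, robust quasi-likelihood, all 8 libraries, no covariate), two-sided, with Benjamini-Hochberg adjustment over 13648 genes and a threshold of 0.05. DESeq2 1.42.0 and limma-voom 3.58.1 were alternatives. The procedure was tested on simulated data. Log2 ratios of paralogs used counts plus 0.5.

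Genes named were those with the 6 smallest p in each direction, paralog pairs, stalk genes, Rpsa and Rps6, the 3 highest and lowest per length, the 2 widest spreads, and in companion lists up to 3 smallest p plus a preset few, of which 1 is not reported here. The genes and lists were chosen with earlier results of these data known. Totals of 7447664 to 10161623 counts limit low genes most.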

Additional observations from a re-analysis of the deposited data

Results flagged for a closer look

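In 114 groups of 4 libraries examined, 11 held a library apart from the other 3 by Dixon's test at 95%. Chance gives about 1 in 20 among independent groups. These groups reuse the same libraries, so the 11 cannot be weighed against that rate. Vehicle 1 was the library apart in 7 of the 11. It was high against the other vehicle libraries for Rps6 (327 CPM against 223.8 to 235.7), Eef1a1 (1575 against 939.5 to 954) and Npm1, a nucleolar chaperone of ribosome assembly (224.4 against 168.7 to 177.9). It was low for Mtor (61.88 against 115.1 to 125.8) and the translation repressor Eif4ebp2 (76.35 against 120.6 to 128.5). It was low also for the Rpl3l share of its pair with Rpl3 (45.21% against 60.59% to 61.4%) and the Rpl7l1 share of its pair with Rpl7 (9.178% against 11.55% to 11.98%). DIZE 4 was low for Rps27l (30.23 CPM against 39.51 to 39.87) and Rps3a1 (342 against 379.9 to 385.5). Mdn1, an ATPase of large-subunit maturation, was high in vehicle 3 (37.95 CPM against 18.21 to 21.58). Rps6kb1, an S6 kinase, was slightly low in vehicle 4 (59.44 CPM against 60.79 to 61.01).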

How the results depend on the processing

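No ribosomal protein gene passed the threshold in either direction in any of 20 settings, and the median log2 fold change stayed below 0, from −0.29 to −0.047. The number of genes below 0 ran from 53 without vehicle 1 to 80. The number at an unadjusted p under 0.05 was 2 at first, 0 with RLE factors, DESeq2 and voom, 1 with upper-quartile factors, title form as a block and no robust option (chosen after seeing the data), 4 without a filter, 8 with library totals, 9 with the GC and length trend removed, 18 with the replicate block, and 0 to 15 leaving out 1 library. In the replicate block (number in the titles) the median was −0.29 and 80 of 82 genes were below 0. The title numbers of DIZE 3 and vehicle 4 each occur in 1 group only, so these libraries did not inform the DIZE estimate there. Same-numbered libraries correlated at −0.14 to 0.02 across groups, and differently numbered ones at −0.21 to 0.137. Such values cannot tell whether the numbers pair the libraries. In all, 1145 of 1216 alternatives kept direction and side of the threshold. The cause was not tested for those that did not. For Rpl13a, Rps10 and Rpl3 the level per kilobase moved with the longest transcript, to 5.04, 1.567 and 100.8. Over tested genes without mitochondrially encoded ones, the mean share of counts was 1.897% with vehicle and 1.599% with DIZE.

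The following log2 fold changes turned sign. With upper-quartile factors Rpl36 had −0.004 and Rpl8 −0.008. With library totals Rpl14 had −0.035, Rpl36 −0.059 and Rpl8 −0.064. With the replicate block Rpl14 had −0.02, Rpl36 −0.144, Rpl8 −0.11 and Ncl 0.037. With the GC and length trend removed Rpl10 had 0.005, Rpl14 −0.075, Rpl22l1 0.109, Rpl36 −0.076, Rpl8 −0.122, Rps3a1 0.048, Eef2 −0.059, Ncl 0.151 and Npm1 0.005.

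Leaving out 1 library at a time gave these ranges, each crossing 0: Rpl10 −0.207 to 0.021, Rpl22 −0.232 to 0.006, Rpl22l1 −0.203 to 0.032, Rplp0 −0.122 to 0.05, Rps3a1 −0.239 to 0.004, Rps4x −0.239 to 0.018, Rpsa −0.198 to 0.025, Tpt1 −0.191 to 0.004 and Mtor −0.09 to 0.195, all of which turned without vehicle 1 only. Rpl3 ran from −0.011 to 0.328 and Rpl3l from −0.333 to 0.061, and both turned without DIZE 2. Rpl36 ran from −0.072 to 0.132, Rpl8 from −0.058 to 0.101, Rplp2 from −0.099 to 0.039 and Ncl from −0.07 to 0.031, each turning without several libraries. The log2 ratio of Rpl3l to Rpl3 ran from −0.581 to 0.021, that of Rpl22l1 to Rpl22 from −0.048 to 0.188 and that of Rpl7l1 to Rpl7 from −0.049 to 0.141.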
